A study of Mus musculus with 9 samples.

Results

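Patrolling monocytes (pMo) were compared with intermediate monocytes (intMo), with 3 RNA sequencing libraries of each subset, which make up 6 of the 9 libraries of the series. The members were chosen by the sample labels alone, and every gene with enough counts was described. Wild-type C57BL/6 mice were the source of the primary cells, which were cultured in vitro, and no library carried a treatment or an altered gene in the labels. By the title of the series, pMo arise in bone marrow cultures on OP9-DLL1, a stromal line that displays the Notch ligand Delta-like 1. Conventional monocytes (cMo), the other 3 libraries, entered the fit to help estimate the spread between libraries. The sources used here do not give the sorting gates, the age of the mice, the length of the cultures or whether the libraries of a subset are separate cultures, so p-values measure the spread between these libraries, which may be technical.

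Monocytes leave the marrow as conventional cells, and some of them convert in stages into patrolling cells, which crawl along the wall of blood vessels and take up debris. Patrolling monocytes depend on the nuclear receptor Nr4a1, live longer than conventional monocytes, and need a receptor for sphingosine 1-phosphate (S1P) to leave the marrow. Intermediate monocytes hold a place between the subsets and are known for high expression of antigen presentation genes.

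The table listed 46517 genes, and 14059 of them passed the filter on low counts and were tested. In pMo, 463 genes were called higher and 238 lower than in intMo (edgeR quasi-likelihood test, p adjusted over all tested genes by Benjamini-Hochberg, threshold 0.05). These were 3.29% and 1.69% of the genes tested and 4.99% in both directions, against which the counts of each gene group below are to be read. All 701 called genes had the 3 libraries of one subset above the 3 of the other, as did 27.7% of all genes tested. The median log2 fold change was 1.12 among genes called higher, -1.43 among genes called lower and -0.02 over all genes tested. A change of at least 2-fold was fitted for 271 genes called higher and 178 called lower, and one of at least 8-fold for 38 and 25. Protein-coding genes made up 98.7% of the called genes and 94.6% of those tested.

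Each intMo library held 18455008 to 29583014 estimated counts and each pMo library 23725441 to 29985563. In a principal component analysis of the 6 libraries, the first component (40.1% of the variance) placed all intMo libraries between -59.0 and -23.7 and all pMo libraries between 20.2 and 45.9. The second (38.2%) placed the libraries numbered 0 at 42.5 in intMo and 54.2 in pMo, and the other libraries between -50.7 and -2.97. Library 0 of each subset thus stood apart from libraries 1 and 2. With libraries 1 and 2 alone, 1053 genes (7.43%) were called higher and 1371 (9.67%) lower, together 17.1%, and these held 691 of the 701 genes called with all libraries. With the library number as a term in the fit (a replicate block), 507 genes (3.61%) were called higher and 329 (2.34%) lower, together 5.95%, and 625 of them were shared with the 701. With DESeq2 in place of edgeR, 767 genes (5.47%) were called higher and 645 (4.6%) lower, together 10.1%. An unadjusted p under 0.05 was given by edgeR for 18.6% of the genes tested, against which such counts below are to be read. Leaving out 1 library gave from 170 genes called higher and 51 lower, without pMo 1, to 650 and 457, without cMo 0. With each of the other libraries left out in turn, the counts were 402 and 179 without cMo 1, 430 and 191 without cMo 2, 424 and 433 without intMo 0, and 216 and 105 without intMo 1. They were 208 and 95 without intMo 2, 298 and 148 without pMo 0, and 198 and 59 without pMo 2.

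**Figure D1:**
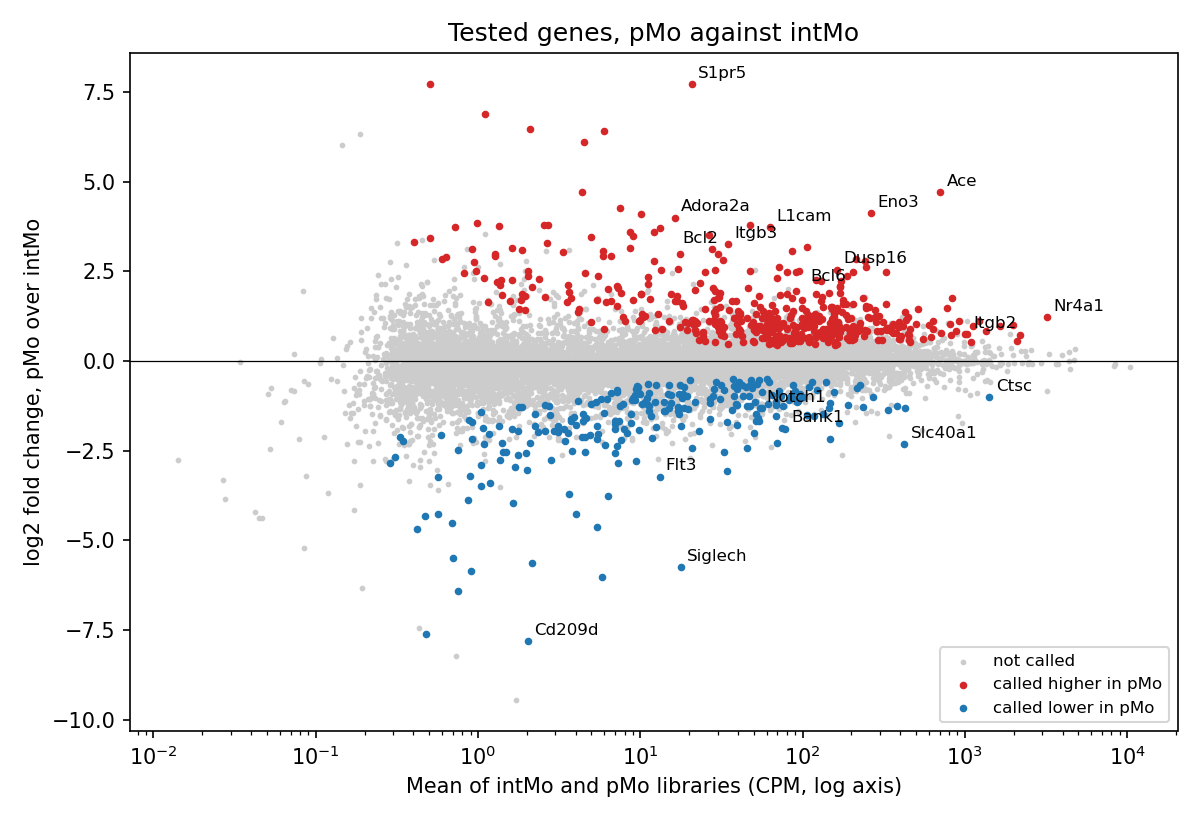
Log2 fold change of each tested gene (pMo over intMo, vertical axis) against its mean level over both subsets (CPM, reads scaled to a common library size, log axis), with genes called higher in pMo in red, genes called lower in blue and the rest in grey. The 463 red points outnumber the 238 blue points, with S1pr5 near the top and Cd209d and Siglech towards the bottom.

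Levels below are CPM, which are counts scaled to a common library size, in libraries 0, 1 and 2 of a subset, in that order, and fold changes are log2 of pMo over intMo with their standard errors. The genes that open the description are Eno3, S1pr5, Bcl6, Dusp16 and Siglech, which had been named for this comparison with earlier results of these libraries known. The genes named are protein coding, apart from the antibody gene Ighm, and their positions are those of the mouse build mm10. S1pr5 (ENSMUSG00000045087.8, chromosome 9, 21242912 to 21248443) encodes the S1P receptor that patrolling monocytes use to leave the marrow. Its level was 0.107, 0.212 and 0.232 CPM in intMo and 44.2, 42 and 37.5 CPM in pMo (log2 7.72 ± 0.44, edgeR adjusted p = 7.19e-05), and all 3 intMo libraries lay close to 0. Eno3 (ENSMUSG00000060600.14, chromosome 11, 70657202 to 70662513) encodes the enolase of skeletal muscle, an enzyme of glycolysis. It was measured at 21.4, 34.4 and 31.3 CPM in intMo and 456, 530.3 and 519 CPM in pMo (log2 4.11 ± 0.19, edgeR adjusted p = 4.63e-05), and at 7.7, 8.19 and 8.13 CPM in cMo, so that it was lowest in cMo and highest in pMo. Siglech (ENSMUSG00000051504.17, chromosome 7, 55768178 to 55778925) encodes a lectin known from plasmacytoid dendritic cells and some macrophages. It went the other way, at 35.5, 36.3 and 33.3 CPM in intMo and 0.986, 0.525 and 0.437 CPM in pMo (log2 -5.75 ± 0.31, edgeR adjusted p = 5.27e-05), and its cMo libraries lay between, at 3.35, 4.57 and 4.57 CPM in cMo.

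Bcl6 (ENSMUSG00000022508.5, chromosome 16, 23965052 to 23988852) encodes a transcriptional repressor that restrains inflammatory genes. Its libraries read 62, 62 and 73.7 CPM in intMo and 284, 273 and 266 CPM in pMo (log2 2.06 ± 0.13, edgeR adjusted p = 0.000104), against 54.5, 55.3 and 46.9 CPM in cMo, so that intMo stood near cMo and pMo apart from both. Dusp16 (ENSMUSG00000030203.16, chromosome 6, 134715468 to 134792625) encodes a phosphatase that acts on the MAP kinases JNK and p38. Its level was 46.1, 49.2 and 48 CPM in intMo and 311, 267 and 261 CPM in pMo (log2 2.55 ± 0.14, edgeR adjusted p = 5.27e-05), with a narrow spread in intMo. Each of these 5 genes kept its call and its direction in all 17 alternative fits, and their adjusted p ranged up to 0.00181 over them. In each, the libraries numbered 0 lay on the same side as libraries 1 and 2.

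**Figure D2:**
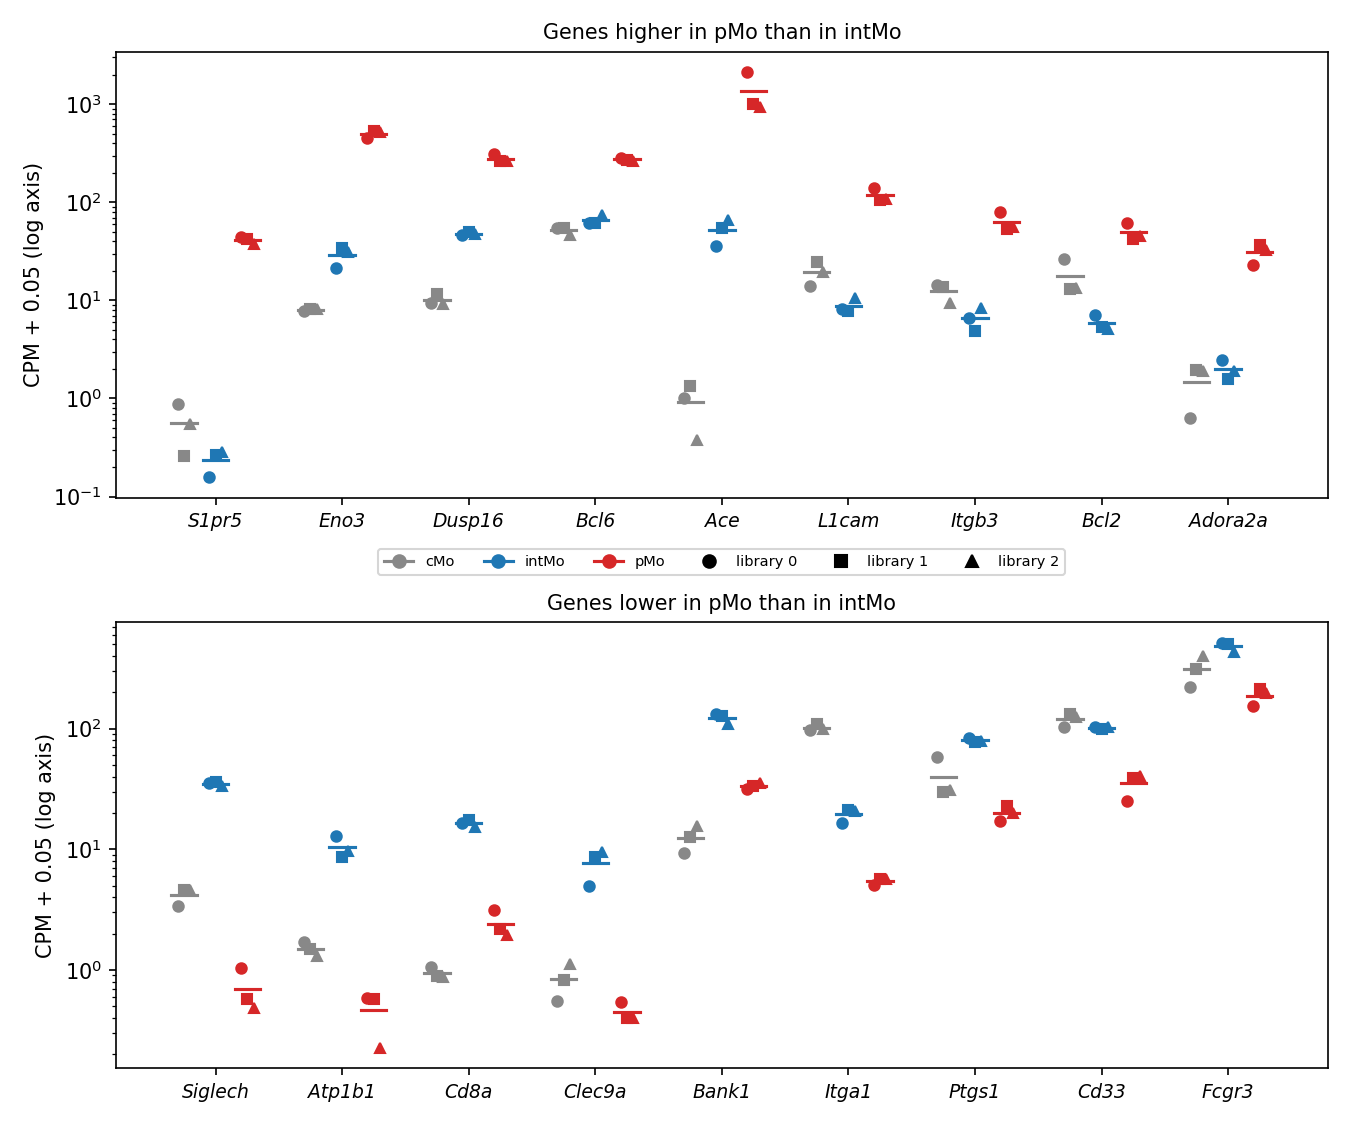
Level of 18 genes in each library (CPM plus 0.05, log axis), with cMo in grey, intMo in blue and pMo in red, symbols by library number and a bar at the mean of 3 libraries. In the upper panel every pMo library lies above every intMo library, and in the lower panel it lies under every one. All genes shown were called, and no called gene overlapped between the subsets.

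The promoters of 3 leading genes and of Il4i1 and L1cam, described below, are shown because they show which sequence motifs of monocyte transcription factors lie near the start of genes that were called in either direction. Each is the stretch of 250 bases before the RefSeq start (GRCm38.p6), written 5′ to 3′ on the strand of the gene, with motif matches in capitals.
S1pr5 promoter, chr9:21248444-21248693, - strand: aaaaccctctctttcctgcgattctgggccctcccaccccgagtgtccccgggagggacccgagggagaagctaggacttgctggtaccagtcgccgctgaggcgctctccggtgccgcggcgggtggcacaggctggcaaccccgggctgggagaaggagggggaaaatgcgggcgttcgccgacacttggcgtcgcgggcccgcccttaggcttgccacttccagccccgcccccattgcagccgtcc
Eno3 promoter, chr11:70656926-70657175, + strand: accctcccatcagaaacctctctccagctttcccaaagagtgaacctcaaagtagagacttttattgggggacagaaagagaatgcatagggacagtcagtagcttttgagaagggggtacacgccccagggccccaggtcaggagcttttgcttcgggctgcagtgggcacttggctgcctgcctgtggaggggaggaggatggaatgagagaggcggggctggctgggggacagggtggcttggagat
Il4i1 promoter, chr7:44836038-44836287, + strand: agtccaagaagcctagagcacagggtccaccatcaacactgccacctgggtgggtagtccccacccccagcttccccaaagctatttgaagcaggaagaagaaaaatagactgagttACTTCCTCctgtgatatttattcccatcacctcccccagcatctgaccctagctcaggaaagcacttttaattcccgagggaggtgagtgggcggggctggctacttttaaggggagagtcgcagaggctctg
L1cam promoter, chrX:73880791-73881040, - strand: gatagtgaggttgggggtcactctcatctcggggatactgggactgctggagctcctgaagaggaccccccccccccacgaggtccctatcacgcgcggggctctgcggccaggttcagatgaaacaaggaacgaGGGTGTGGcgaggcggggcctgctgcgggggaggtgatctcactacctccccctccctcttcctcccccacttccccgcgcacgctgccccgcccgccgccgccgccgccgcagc
Siglech promoter, chr7:55767934-55768183, + strand: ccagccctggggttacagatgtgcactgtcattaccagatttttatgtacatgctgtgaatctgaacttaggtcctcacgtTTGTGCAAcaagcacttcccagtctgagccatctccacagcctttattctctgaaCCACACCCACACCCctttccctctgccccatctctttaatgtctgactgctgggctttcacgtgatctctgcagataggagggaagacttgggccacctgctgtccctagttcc
For each symbol the first listed RefSeq start was used, which for L1cam and Il4i1 lies inside the annotated span of the gene. Promoters from 250 bases before to 50 bases after the start were searched on both strands for GAGGAAGT, a site of PU.1, the factor encoded by Spi1. They were also searched for GGGTGTGG of KLF factors, TTGCNNAA of C/EBP factors and AAAGGTCA of Nr4a receptors. The Il4i1 promoter held the PU.1 letters from base -133, on the opposite strand, and the L1cam promoter the KLF letters from base -115. In the Siglech promoter the KLF letters lay on the opposite strand at -114 and -108, sharing 2 bases, and the C/EBP letters at -169. None of the 4 motifs was found in the S1pr5 and Eno3 windows, which says only that these letters are not there.

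Of 463 genes called higher, 359 had a promoter in the RefSeq table, as had 181 of 238 called lower and 10450 of 14059 tested. The PU.1 letters lay in 6.96% of promoters of genes called higher (25 genes), 4.42% of those called lower (8 genes) and 3.38% of all. Il4i1, Bcl2a1a, Bcl2a1b, Bcl2a1d, Itgav, Dusp5, Spp1 and Tnip3 were among the 25. The Bcl2a1 genes are nearly identical copies and were counted separately, which raises that share. The C/EBP letters lay in 8.08% of promoters of genes called higher, 13.3% of those called lower and 8.65% of all. For the KLF letters the shares were 3.34%, 4.42% and 3.87%, and for the Nr4a letters 1.11%, 1.10% and 0.919%. These shares are descriptions of the promoter windows with no test, and a match is not a bound site.

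The labels were set against genes that define these subsets. Nr4a1 was already high in intMo and rose further, from 2307, 1535 and 1927 CPM in intMo to 5083, 4340 and 4047 CPM in pMo (log2 1.22 ± 0.18, edgeR adjusted p = 0.00598). Spn, which encodes the surface glycoprotein CD43 of patrolling monocytes, rose from 57.2, 111 and 129 CPM in intMo to 619, 529 and 504 CPM in pMo (log2 2.47 ± 0.29, edgeR adjusted p = 0.00245). In cMo it was at 332, 273 and 227 CPM, above every intMo library and below every pMo library. Ace, the angiotensin-converting enzyme, showed 35.4, 54.2 and 66.3 CPM in intMo and 2143, 1001 and 936 CPM in pMo (log2 4.71 ± 0.49, edgeR adjusted p = 0.00136), with pMo library 0 above the other pMo libraries. Its log2 change was 4.01 with libraries 1 and 2 alone. Treml4, a receptor for dying cells, rose by log2 0.92 ± 0.17 (edgeR adjusted p = 0.0179), and Itgax, the integrin CD11c, by log2 0.84 ± 0.20 (edgeR adjusted p = 0.0478). Cx3cr1, which binds fractalkine on endothelium, had 93.2, 115 and 124 CPM in intMo and 331, 406 and 396 CPM in pMo without a call (log2 1.77 ± 0.47, edgeR adjusted p = 0.0685). Ly6c2, the surface marker of conventional monocytes, had 24.5, 256 and 207 CPM in intMo and 8.71, 75.5 and 75.3 CPM in pMo and was not called (log2 -1.61 ± 0.86, edgeR adjusted p = 0.371). Ccr2, the receptor for exit from the marrow, was not called either, at 666, 899 and 717 CPM in intMo and 308, 391 and 414 CPM in pMo (log2 -1.04 ± 0.28, edgeR adjusted p = 0.0696), but was called lower with a replicate block (adjusted p = 0.0268). The subsets did not overlap in Cx3cr1 and Ccr2 but overlapped in Ly6c2, in which pMo libraries 1 and 2 lay above intMo library 0. Ly6c2 has close paralogs, so its reads may be divided among copies. The calls of Treml4 and Itgax were each lost on leaving out at least 1 library among cMo 1, intMo 1, intMo 2, pMo 0, pMo 1 and pMo 2 (adjusted p up to 0.157). Itgax also lost its call with RLE scaling (0.0546), with upper quartile scaling (0.0657) and with a filter at 1 CPM in 3 libraries (0.0519).

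Transcription factors with a role in monocyte fate held 11 genes that rose and 1 that fell among 38 tested, with a median log2 change of 0.51. Besides Bcl6 and Nr4a1, those that rose were Klf2, Klf4, Cebpb, Spi1, Pou2f2, Nfe2l2, Runx2, Ikzf3 and Nr4a3. Klf2, a factor of leukocyte quiescence and migration, was at 32.3, 37.4 and 44 CPM in intMo and 193, 132 and 111 CPM in pMo (log2 1.94 ± 0.23, edgeR adjusted p = 0.00257), while 71.6, 99.9 and 85.1 CPM in cMo put intMo lowest of the subsets. Cebpb, a factor that patrolling monocytes need to survive, followed the same order, with 139.9, 174 and 185 CPM in intMo and 452, 396 and 325 CPM in pMo (log2 1.23 ± 0.16, edgeR adjusted p = 0.0038) and 217, 239 and 255 CPM in cMo. Klf4, a factor of monocyte differentiation, was at 56.2, 22.5 and 25.6 CPM in intMo and 173, 106 and 98.4 CPM in pMo (log2 1.86 ± 0.36, edgeR adjusted p = 0.021) and at 129, 174 and 150.2 CPM in cMo, so that cMo had the highest mean there. Those 3 factors thus had their lowest libraries in intMo. Pou2f2, an octamer-binding factor of lymphocytes, rose by log2 1.10 ± 0.17 (edgeR adjusted p = 0.00882), Nfe2l2, which drives antioxidant genes, by log2 1.04 ± 0.19 (edgeR adjusted p = 0.0143), and Runx2, a factor of bone and plasmacytoid dendritic cells, by log2 0.90 ± 0.18 (edgeR adjusted p = 0.0243). Spi1, the master factor of myeloid cells, showed a small and even shift, at 460.4, 416 and 442 CPM in intMo and 682, 665 and 658 CPM in pMo (log2 0.61 ± 0.11, edgeR adjusted p = 0.013). Cebpd, a relative of Cebpb, was the member that fell, at 61.5, 59 and 71.6 CPM in intMo and 43.6, 42.7 and 36.5 CPM in pMo (log2 -0.65 ± 0.14, edgeR adjusted p = 0.0321).

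Ikzf3, a zinc finger factor of lymphocytes, had 0.643, 0.679 and 0.862 CPM in intMo and 9.9, 3.85 and 4.24 CPM in pMo (log2 3.02 ± 0.72, edgeR adjusted p = 0.0465). Nr4a3, a relative of Nr4a1, had 5.63, 1.87 and 3.48 CPM in intMo and 23.8, 15.9 and 15.9 CPM in pMo (log2 2.35 ± 0.52, edgeR adjusted p = 0.0335). Outside the list, Bhlhe40, a repressor linked to the clock and to cytokine control, rose from 38.2, 22.2 and 23.4 CPM in intMo to 165, 153 and 147 CPM in pMo (log2 2.48 ± 0.39, edgeR adjusted p = 0.00882). Egr3, a zinc finger factor of the immediate early class, rose by log2 2.10 ± 0.26 (edgeR adjusted p = 0.00307) and was the 1 called gene among 21 immediate early and heat shock genes, whose median was -0.01. Hspa8, a chaperone and the most abundant of those, had 3975, 5634 and 4668 CPM in intMo and 3042, 4635 and 4561 CPM in pMo (log2 -0.22 ± 0.20, edgeR adjusted p = 0.643). For Ikzf3 the log2 change was 2.37 with libraries 1 and 2 alone. The calls of Klf4, Spi1, Nfe2l2, Runx2, Cebpd, Ikzf3 and Nr4a3 were each lost on leaving out at least 1 library among cMo 1, cMo 2, intMo 0, intMo 1, intMo 2, pMo 0, pMo 1 and pMo 2 (adjusted p up to 0.156). Ikzf3 also lost its call with upper quartile scaling (0.0515).

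Phosphatases of MAP kinases and brakes on Ras held 7 genes that rose and none that fell among 22 tested, with a median of 0.43. Spred1, an inhibitor of Ras signalling, was measured at 44, 37.4 and 44.5 CPM in intMo and 113, 117 and 118 CPM in pMo (log2 1.47 ± 0.14, edgeR adjusted p = 0.000958). Dusp5, a nuclear phosphatase of ERK, was measured at 179, 135 and 141 CPM in intMo and 363, 358 and 353 CPM in pMo (log2 1.24 ± 0.15, edgeR adjusted p = 0.00264), far above 8.93, 7.17 and 6.98 CPM in cMo. Both genes lay in a narrow range in pMo. Rasa4, which switches Ras off, rose by log2 1.10 ± 0.20 (edgeR adjusted p = 0.0147), and Dusp2 and Dusp3, further MAP kinase phosphatases, by log2 0.99 ± 0.22 (edgeR adjusted p = 0.0351) and log2 0.97 ± 0.22 (edgeR adjusted p = 0.0386). Dusp4, a nuclear phosphatase of the same family, rose from a low level, with 0.482, 0.17 and 0.232 CPM in intMo and 1.48, 1.89 and 1.57 CPM in pMo (log2 2.50 ± 0.55, edgeR adjusted p = 0.0319). The calls of Rasa4, Dusp2, Dusp3 and Dusp4 were each lost on leaving out at least 1 library among cMo 1, cMo 2, intMo 1, intMo 2, pMo 0, pMo 1 and pMo 2 (adjusted p up to 0.143). Dusp2 also lost its call with upper quartile scaling (0.0508) and in a fit of the 6 intMo and pMo libraries alone (0.0578). Dusp3 also lost its call with upper quartile scaling (0.0552) and with a replicate block (0.0607).

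Of 21 genes of the Bcl2 family and of survival, 8 rose, none fell and 13 were not called, with a median of 0.42. They included guards against cell death and its triggers alike. Bcl2, the prototype guard, was at 6.97, 5.35 and 5.04 CPM in intMo and 61.3, 42.6 and 45.6 CPM in pMo (log2 3.11 ± 0.31, edgeR adjusted p = 0.00101), with cMo between the subsets (26.1, 13 and 13.3 CPM in cMo). Bcl2a1a, a guard induced by inflammatory signals, had 21, 26.2 and 23.2 CPM in intMo and 76.5, 134 and 138 CPM in pMo (log2 2.30 ± 0.23, edgeR adjusted p = 0.00101). Its copies Bcl2a1b and Bcl2a1d rose by log2 2.22 ± 0.27 (edgeR adjusted p = 0.00264) and log2 2.23 ± 0.26 (edgeR adjusted p = 0.00245). These copies are nearly identical, so the division of reads among them is uncertain. Birc3, an inhibitor of apoptosis, rose by log2 0.76 ± 0.18 (edgeR adjusted p = 0.0441). The triggers of cell death that rose were Bmf (log2 1.05 ± 0.20, edgeR adjusted p = 0.0183), Bbc3 (log2 0.85 ± 0.17, edgeR adjusted p = 0.0241) and Pmaip1 (log2 0.82 ± 0.20, edgeR adjusted p = 0.0463), which encode proteins that bind and block Bcl2 relatives. Mcl1, a further guard, was not called, at 829.6, 887 and 813 CPM in intMo and 1088, 1163 and 1132 CPM in pMo (log2 0.42 ± 0.15, edgeR adjusted p = 0.171). The calls of Birc3, Bmf, Bbc3 and Pmaip1 were each lost on leaving out at least 1 library among cMo 1, intMo 0, intMo 1, intMo 2, pMo 0, pMo 1 and pMo 2 (adjusted p up to 0.182). Birc3 also lost its call with upper quartile scaling (0.0624) and with a filter at 1 CPM in 3 libraries (0.0572). Pmaip1 also lost its call with upper quartile scaling (0.0567) and with a filter at 1 CPM in 3 libraries (0.0545).

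Integrins and adhesion molecules had 9 members that rose and 1 that fell among 27 tested (median 0.52). Itgb3, the beta chain of the vitronectin receptor, was at 6.59, 4.8 and 8.32 CPM in intMo and 79.5, 53.8 and 55.7 CPM in pMo (log2 3.26 ± 0.28, edgeR adjusted p = 0.000689). Its partner chain Itgav was at 79.2, 99 and 101 CPM in intMo and 201, 217 and 215 CPM in pMo (log2 1.18 ± 0.13, edgeR adjusted p = 0.00156). Both chains of LFA-1, the integrin with which patrolling monocytes crawl on endothelium, rose as well. Its beta chain Itgb2 was at 730, 769 and 816 CPM in intMo and 1342, 1302 and 1237 CPM in pMo (log2 0.75 ± 0.11, edgeR adjusted p = 0.00592). Its alpha chain Itgal stood at 606, 762 and 943 CPM in intMo and 1542, 1772 and 1681 CPM in pMo (log2 1.11 ± 0.18, edgeR adjusted p = 0.0102). Icam1, a ligand of LFA-1, rose by log2 0.71 ± 0.14 (edgeR adjusted p = 0.0219), and Ninj1, an adhesion molecule, by log2 0.70 ± 0.15 (edgeR adjusted p = 0.0264). Itga1, the alpha chain of a collagen receptor, fell from 16.5, 21.3 and 20.9 CPM in intMo to 4.97, 5.67 and 5.64 CPM in pMo (log2 -1.85 ± 0.14, edgeR adjusted p = 0.000385), while cMo lay far above both, at 96.5, 108 and 99.1 CPM in cMo. The subsets did not overlap in these genes, which held for all 701 called genes and so adds nothing to the calls.

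L1cam, an adhesion molecule of neurons and some leukocytes whose promoter is shown above, was not in the list and was at 8.2, 7.68 and 10.5 CPM in intMo and 141, 106 and 107 CPM in pMo (log2 3.74 ± 0.25, edgeR adjusted p = 0.000194). Ceacam1, another adhesion glycoprotein, was at 36.1, 73.8 and 76.6 CPM in intMo and 279.6, 378 and 389 CPM in pMo (log2 2.49 ± 0.28, edgeR adjusted p = 0.00185). Vcam1, an endothelial and macrophage ligand of integrins, fell from 239, 125 and 109.5 CPM in intMo to 52.7, 54.4 and 60.1 CPM in pMo (log2 -1.50 ± 0.29, edgeR adjusted p = 0.0195). Cd9, a tetraspanin that organises integrins in the membrane, rose from 30.1, 85.4 and 70.6 CPM in intMo to 122, 242 and 230.2 CPM in pMo (log2 1.67 ± 0.38, edgeR adjusted p = 0.0394), with library 0 the lowest of each subset. The calls of Itgal, Icam1, Ninj1, Vcam1 and Cd9 were each lost on leaving out at least 1 library among cMo 1, cMo 2, intMo 0, intMo 1, intMo 2, pMo 0, pMo 1 and pMo 2 (adjusted p up to 0.154). Cd9 also lost its call without a filter on low counts (0.063) and in a fit of the 6 intMo and pMo libraries alone (0.0721).

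Among 44 genes that control actin and small GTPases, 7 rose and none fell (median 0.18). Myo1g, a membrane motor of blood cells, was at 355, 384 and 413 CPM in intMo and 1368, 1270 and 1240 CPM in pMo (log2 1.75 ± 0.13, edgeR adjusted p = 0.000316). Arhgef3, an activator of small GTPases, was at 47, 55.8 and 51.7 CPM in intMo and 174, 198 and 196 CPM in pMo (log2 1.88 ± 0.18, edgeR adjusted p = 0.000958). The pMo libraries of both genes were several times above those of intMo. Rhoq, a GTPase of the Cdc42 group, rose by log2 1.23 ± 0.25 (edgeR adjusted p = 0.0241). Smaller shifts were called for Msn, which ties actin to the membrane (log2 0.77 ± 0.16, edgeR adjusted p = 0.0268), Myo1f, another membrane motor (log2 0.72 ± 0.15, edgeR adjusted p = 0.0287), Dock2, an activator of Rac (log2 0.58 ± 0.13, edgeR adjusted p = 0.0315), and Coro1a, an actin-binding protein (log2 0.57 ± 0.13, edgeR adjusted p = 0.0347). Tiam2, another activator of Rac outside the list, was among the largest changes, at 1.55, 5.64 and 5.5 CPM in intMo and 45, 49.9 and 50.6 CPM in pMo (log2 3.50 ± 0.40, edgeR adjusted p = 0.00206). The calls of Rhoq, Msn, Myo1f, Dock2 and Coro1a were each lost on leaving out at least 1 library among cMo 1, intMo 0, intMo 1, intMo 2, pMo 0, pMo 1 and pMo 2 (adjusted p up to 0.144). Dock2 also lost its call with upper quartile scaling (0.0518). Coro1a also lost its call with upper quartile scaling (0.0508) and without a filter on low counts (0.0589).

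Receptors for S1P and other lipid mediators did not move as a group, with 2 of 25 higher, 1 lower and a median of -0.04. Of the other S1P receptors, S1pr1 had 2.95, 1.74 and 1.79 CPM in intMo and 1.64, 2.77 and 1.35 CPM in pMo (log2 -0.16 ± 0.42, edgeR adjusted p = 0.904). S1pr2 was measured at 69.8, 46.6 and 57.1 CPM in intMo and 54.4, 57.2 and 54.6 CPM in pMo (log2 -0.06 ± 0.17, edgeR adjusted p = 0.909). S1pr4 was at 4.77, 9.51 and 12.2 CPM in intMo and 9.61, 18.7 and 14.3 CPM in pMo (log2 0.68 ± 0.39, edgeR adjusted p = 0.41). None of these was called, and the subsets overlapped in each. The direction of S1pr1 turned with libraries 1 and 2 alone (log2 0.24), without intMo 0 (0.13) or without pMo 2 (0.05), and that of S1pr2 with libraries 1 and 2 alone (0.11) or without intMo 0 (0.10). Ptgir, the receptor for prostacyclin, rose from 6.7, 13.4 and 12.5 CPM in intMo to 38.7, 49.7 and 46.7 CPM in pMo (log2 2.04 ± 0.26, edgeR adjusted p = 0.00306), and cMo lay at the level of pMo (35.1, 45.9 and 45.8 CPM in cMo). Cysltr1, a leukotriene receptor, fell (log2 -1.16 ± 0.28, edgeR adjusted p = 0.0474).

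Among the genes that fell were 3 enzymes that make prostanoids. Ptgs1, the constitutive cyclooxygenase, fell from 83.2, 77.5 and 79.5 CPM in intMo to 17, 22.6 and 20.1 CPM in pMo (log2 -2.01 ± 0.25, edgeR adjusted p = 0.00319). Tbxas1, the thromboxane synthase, was at 119, 58.1 and 57.2 CPM in intMo and 30.1, 21.4 and 22 CPM in pMo (log2 -1.67 ± 0.29, edgeR adjusted p = 0.013). Ptgis, the prostacyclin synthase, stood at 20.6, 7.98 and 9.05 CPM in intMo and 3.78, 2.87 and 3.5 CPM in pMo (log2 -1.89 ± 0.41, edgeR adjusted p = 0.0459). Tbxa2r, the thromboxane receptor, was near 0 in pMo, at 1.23, 0.764 and 1.26 CPM in intMo and 0.0411, 0.105 and 0 CPM in pMo (log2 -4.27 ± 0.92, edgeR adjusted p = 0.0307). These genes were no list of their own and, apart from Ptgs1, were picked after their values were seen. Without pMo 1 the log2 change of Tbxa2r was -5.39. The calls of Cysltr1, Tbxas1, Ptgis and Tbxa2r were each lost on leaving out at least 1 library among cMo 1, intMo 0, intMo 1, intMo 2, pMo 0, pMo 1 and pMo 2 (adjusted p up to 0.192).

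Genes of G protein signalling and cyclic AMP were called higher in 5 and lower in 2 of 39 cases (median -0.02). Both receptors for adenosine that raise cyclic AMP rose. Adora2a was at 2.41, 1.53 and 1.86 CPM in intMo and 23.2, 36.5 and 32.6 CPM in pMo (log2 3.997 ± 0.42, edgeR adjusted p = 0.00125). Adora2b had 3.16, 2.84 and 2.59 CPM in intMo and 11.1, 12.2 and 11.6 CPM in pMo (log2 2.02 ± 0.20, edgeR adjusted p = 0.00101). Rgs3, which shortens G protein signals, rose by log2 1.16 ± 0.21 (edgeR adjusted p = 0.0156), Grk3, a receptor kinase, by log2 1.10 ± 0.21 (edgeR adjusted p = 0.0182), and Prkcb, a protein kinase C, by log2 0.58 ± 0.13 (edgeR adjusted p = 0.0399). Gng2, a G protein gamma subunit, and Gpr171, a G protein-coupled receptor of leukocytes, fell (log2 -0.99 ± 0.21, edgeR adjusted p = 0.0266 and log2 -0.94 ± 0.21, edgeR adjusted p = 0.0334). The calls of Rgs3, Grk3, Prkcb, Gng2 and Gpr171 were each lost on leaving out at least 1 library among cMo 1, intMo 0, intMo 1, intMo 2, pMo 0, pMo 1 and pMo 2 (adjusted p up to 0.167). Prkcb also lost its call with upper quartile scaling (0.0524), without a filter on low counts (0.0558) and with a replicate block (0.0613). Gpr171 also lost its call with a replicate block (0.0538).

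Receptors for chemokines and other attractants split, with 4 higher and 5 lower of 21 (median -0.44), and 2 and 8 with a replicate block. The chemokine receptors that were called fell, while receptors for bacterial peptides and complement rose. Ccr1, a receptor for inflammatory chemokines, was at 291, 286 and 228 CPM in intMo and 94.1, 125 and 125 CPM in pMo (log2 -1.22 ± 0.16, edgeR adjusted p = 0.00407). Ccr9, known from gut-homing cells and plasmacytoid dendritic cells, fell (log2 -1.69 ± 0.32, edgeR adjusted p = 0.0187). The nucleotide receptors P2ry12 (log2 -1.30 ± 0.25, edgeR adjusted p = 0.0196) and P2ry14 (log2 -1.33 ± 0.25, edgeR adjusted p = 0.0183) fell as well. In the other direction, Fpr1, a receptor for formyl peptides, was at 33.7, 62.2 and 48.9 CPM in intMo and 108, 140.1 and 134 CPM in pMo (log2 1.40 ± 0.31, edgeR adjusted p = 0.0332). Its relative Fpr2 stood at 80.9, 147 and 109 CPM in intMo and 182, 238 and 246 CPM in pMo (log2 0.98 ± 0.23, edgeR adjusted p = 0.0409). C5ar1, the receptor for complement C5a, was at 26.5, 19.1 and 23.3 CPM in intMo and 38.7, 60.5 and 58.6 CPM in pMo (log2 1.20 ± 0.23, edgeR adjusted p = 0.0187). Ccrl2, a decoy-like receptor that binds chemerin, rose by log2 1.11 ± 0.25 (edgeR adjusted p = 0.0387). The calls of Ccr9, P2ry12, P2ry14, Fpr1, Fpr2, C5ar1 and Ccrl2 were each lost on leaving out at least 1 library among cMo 1, cMo 2, intMo 0, intMo 1, intMo 2, pMo 0, pMo 1 and pMo 2 (adjusted p up to 0.158). Fpr1 also lost its call with a replicate block (0.0724). Ccrl2 also lost its call with a replicate block (0.0578) and with upper quartile scaling (0.0526). Fpr2 also lost its call in a fit of the 6 intMo and pMo libraries alone (0.0577).

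Among 18 chemokines tested, 6 were called higher and none lower (median 0.42), while 7 had a negative fold change. DESeq2 called 7 higher and 2 lower, and the fit of libraries 1 and 2 alone called 8 higher and 5 lower. Between same-numbered libraries the median log2 difference was -0.10, 0.17 and 0.58. Ccl24, an attractant of eosinophils, was at 7.5, 9.97 and 7.96 CPM in intMo and 47, 52.5 and 47.3 CPM in pMo (log2 2.53 ± 0.24, edgeR adjusted p = 0.000958). Ccl22, which attracts regulatory T cells, was at 7.72, 2.12 and 2.15 CPM in intMo and 35.6, 29.8 and 27.3 CPM in pMo (log2 2.97 ± 0.47, edgeR adjusted p = 0.00885), with intMo library 0 above the other intMo libraries and a log2 change of 3.85 without it. Ccl9 and Ccl6, attractants made by myeloid cells, rose by log2 1.75 ± 0.27 (edgeR adjusted p = 0.00844) and log2 1.29 ± 0.21 (edgeR adjusted p = 0.00899). Ccl9 was at 92.3, 123 and 110.3 CPM in intMo and 332, 376 and 386 CPM in pMo. In cMo it ranged more widely (207, 398 and 475 CPM in cMo), above every intMo library and on both sides of pMo. Ccl4 and Ccl3, inflammatory attractants, rose by log2 1.89 ± 0.33 (edgeR adjusted p = 0.0123) and log2 0.91 ± 0.21 (edgeR adjusted p = 0.0436). The calls of Ccl4 and Ccl3 were each lost on leaving out at least 1 library among cMo 1, intMo 1, intMo 2, pMo 0, pMo 1 and pMo 2 (adjusted p up to 0.15). Ccl3 also lost its call with upper quartile scaling (0.0635), with a filter at 1 CPM in 3 libraries (0.0501) and with a replicate block (0.0582). For Ccl4 the log2 change was 2.49 with libraries 1 and 2 alone.

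Inflammatory cytokines and their receptors rose in 7 of 36 cases and fell in 1 (median 0.06), against 8 and 4 with a replicate block. Tnf, the tumour necrosis factor, was at 23.9, 15.2 and 13.1 CPM in intMo and 70.8, 49.3 and 46.9 CPM in pMo (log2 1.68 ± 0.25, edgeR adjusted p = 0.00623). Tnfrsf1b, a receptor for it, was at 446, 341 and 449.6 CPM in intMo and 1260, 1119 and 1042 CPM in pMo (log2 1.47 ± 0.19, edgeR adjusted p = 0.00324). Il1rn, which encodes the natural antagonist of interleukin 1, was at 49.5, 71.4 and 61.7 CPM in intMo and 175, 261 and 249.6 CPM in pMo (log2 1.91 ± 0.22, edgeR adjusted p = 0.00245). Ltb, a lymphotoxin chain, rose by log2 1.32 ± 0.20 (edgeR adjusted p = 0.00676), and Csf2ra, a receptor chain for the growth factor GM-CSF, by log2 0.85 ± 0.12 (edgeR adjusted p = 0.00623). Il17ra, the receptor chain for interleukin 17, and Lif, a cytokine of the interleukin 6 group, rose by log2 1.14 ± 0.26 (edgeR adjusted p = 0.0359) and log2 1.83 ± 0.44 (edgeR adjusted p = 0.0463). Flt3, the growth factor receptor of dendritic cells and progenitors, was the member that fell, at 34.9, 17.1 and 19.3 CPM in intMo and 5.67, 1.26 and 0.699 CPM in pMo (log2 -3.22 ± 0.65, edgeR adjusted p = 0.0249), with 36.5, 34.1 and 33.7 CPM in cMo. Outside the list, Csf1, the growth factor of monocytes themselves, rose from 16, 33.5 and 35.9 CPM in intMo to 122, 188 and 173 CPM in pMo (log2 2.50 ± 0.34, edgeR adjusted p = 0.00459). Spp1, which encodes the matrix cytokine osteopontin, rose from 30.7, 82.9 and 70.1 CPM in intMo to 287, 508 and 486 CPM in pMo (log2 2.80 ± 0.43, edgeR adjusted p = 0.00846). Without pMo 0 the log2 change of Flt3 was -4.56. The calls of Il17ra, Lif and Flt3 were each lost on leaving out at least 1 library among cMo 1, cMo 2, intMo 0, intMo 1, intMo 2, pMo 0, pMo 1 and pMo 2 (adjusted p up to 0.202). Il17ra also lost its call in a fit of the 6 intMo and pMo libraries alone (0.0508). Lif also lost its call in a fit of the 6 intMo and pMo libraries alone (0.068), with upper quartile scaling (0.0525) and without a filter on low counts (0.0557). Flt3 also lost its call in a fit of the 6 intMo and pMo libraries alone (0.0582) and without a filter on low counts (0.0626).

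Of 19 genes of dendritic cell maturation and costimulation, 4 rose and none fell (median 0.34), Ccl22 among them. The ligands of the inhibitory receptor PD-1 both rose. Cd274, which encodes PD-L1, was at 141, 109.8 and 113 CPM in intMo and 266, 277 and 289 CPM in pMo (log2 1.19 ± 0.22, edgeR adjusted p = 0.0177). Pdcd1lg2, which encodes PD-L2, stood at 4.24, 3.99 and 4.14 CPM in intMo and 15.6, 18.9 and 20.1 CPM in pMo (log2 2.14 ± 0.21, edgeR adjusted p = 0.000958). Traf1, an adapter of TNF receptors, was at 32.5, 20.6 and 20.6 CPM in intMo and 156, 128 and 125 CPM in pMo (log2 2.47 ± 0.41, edgeR adjusted p = 0.0107). Il4i1, an enzyme that breaks down amino acids and dampens T cells, was not in the list and was at 32, 15.4 and 15.9 CPM in intMo and 207, 190.2 and 178 CPM in pMo (log2 3.19 ± 0.29, edgeR adjusted p = 0.000868), with intMo library 0 nearest to pMo. The calls of Cd274 and Traf1 were each lost on leaving out at least 1 library among intMo 1, intMo 2, pMo 1 and pMo 2 (adjusted p up to 0.0805). Tnip3, an inhibitor of NF-kB signalling, was at 5.47, 8.66 and 6.36 CPM in intMo and 33.7, 61.4 and 66.3 CPM in pMo (log2 2.97 ± 0.57, edgeR adjusted p = 0.02). The call of Tnip3 was lost without intMo 1, intMo 2, pMo 1 or pMo 2 (adjusted p up to 0.0876).

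Siglecs and C-type lectins held 6 genes that fell and 1 that rose among 27 tested (median -0.62), and 6 and 3 with a replicate block. Besides Siglech, Cd33, an inhibitory siglec, was at 102, 99 and 102 CPM in intMo and 25.2, 39.2 and 40.8 CPM in pMo (log2 -1.53 ± 0.19, edgeR adjusted p = 0.00279). Clec9a, a receptor for dead cells on cross-presenting dendritic cells, was at 4.93, 8.62 and 9.45 CPM in intMo and 0.493, 0.35 and 0.35 CPM in pMo (log2 -4.26 ± 0.41, edgeR adjusted p = 0.000958). Mgl2, a galactose-binding lectin, was at 17, 10.8 and 8.55 CPM in intMo and 3.25, 2.14 and 1.57 CPM in pMo (log2 -2.38 ± 0.39, edgeR adjusted p = 0.0104), and cMo lay above both subsets (45.7, 85.3 and 98.8 CPM in cMo). Cd209d, a relative of the lectin DC-SIGN, had 278 estimated counts over the intMo libraries and 1 over the pMo libraries, a ratio of 291 with an exact 95% counting interval of 51.8 to 11540. Cd209a, another relative, had 59 and 2, a ratio of 30.9 (8.18 to 261). Clec4e, a lectin that senses mycobacterial lipids and cell damage, was the member that rose, at 42.9, 96 and 76.6 CPM in intMo and 197, 294 and 309 CPM in pMo (log2 1.89 ± 0.32, edgeR adjusted p = 0.0112). The calls of Mgl2, Cd209a and Clec4e were each lost on leaving out at least 1 library among intMo 1, intMo 2, pMo 0, pMo 1 and pMo 2 (adjusted p up to 0.0913).

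Several of these genes are markers of dendritic cells, so the lists for other cell types are given here. Of 17 genes of plasmacytoid dendritic cells tested, 6 fell and 1 rose (median -1.61). They were Siglech, Cd209d, Ccr9, Atp1b1, Ly6d and Pacsin1, with Runx2 in the other direction. Atp1b1, a sodium pump subunit, was at 12.9, 8.53 and 9.58 CPM in intMo and 0.534, 0.525 and 0.175 CPM in pMo (log2 -4.62 ± 0.40, edgeR adjusted p = 0.000804). Ly6d, a surface protein of lymphoid progenitors, had 18.8, 8.83 and 6.96 CPM in intMo and 0.493, 0.035 and 0 CPM in pMo (log2 -6.01 ± 0.94, edgeR adjusted p = 0.00885). Pacsin1, an adapter of membrane traffic, was measured at 4.83, 4.2 and 5.63 CPM in intMo and 0.986, 0.7 and 0.481 CPM in pMo (log2 -2.75 ± 0.34, edgeR adjusted p = 0.00279). The summed levels of the list were 889, 1145 and 1096 CPM in intMo and 852, 1060 and 1042 in pMo. The sums overlapped between the subsets but were lower in pMo for each library number. Lair1, an inhibitory collagen receptor and the most abundant of the list, had 228, 218 and 184 CPM in intMo and 270.3, 273 and 279 CPM in pMo (log2 0.38 ± 0.15, edgeR adjusted p = 0.214). For Ly6d the log2 change was -8.89 without pMo 0. Iglc3, Klk1 and Mzb1 of that list were too low to be tested. Of 18 genes of classical dendritic cells, 6 fell and none was called higher (median -0.35), while 8 had a positive fold change. DESeq2 called 2 higher and 6 lower, and the fit of libraries 1 and 2 alone called 4 higher and 9 lower. The summed levels were 3613, 2832 and 2921 CPM in intMo and 3677, 3215 and 3052 in pMo, higher in pMo for each library number. Most of each sum came from Sirpa, described below, so the sums say little about the other members. The 6 that fell were Clec9a, Cd209a, Flt3, Cd8a, Itgae and Kmo. Sirpa, an inhibitory receptor of myeloid cells and the most abundant of that list, had 2714, 2058 and 2036 CPM in intMo and 2661, 2511 and 2379 CPM in pMo (log2 0.15 ± 0.20, edgeR adjusted p = 0.785). Cd8a, the alpha chain of CD8, was at 16.6, 17.5 and 15.2 CPM in intMo and 3.08, 2.14 and 1.88 CPM in pMo (log2 -2.79 ± 0.24, edgeR adjusted p = 0.000699). Itgae, an integrin of mucosal cells, was at 3.32, 3.56 and 3.68 CPM in intMo and 0.822, 1.19 and 0.962 CPM in pMo (log2 -1.82 ± 0.33, edgeR adjusted p = 0.0159). Kmo, an enzyme of tryptophan breakdown, stood at 69.8, 60.9 and 53.7 CPM in intMo and 26.1, 12 and 15.2 CPM in pMo (log2 -1.79 ± 0.31, edgeR adjusted p = 0.0123). In bulk libraries, fewer cells of a type and less RNA per cell cannot be told apart, and the part of dendritic cells in these results was not tested. The calls of Itgae and Kmo were each lost on leaving out at least 1 library among intMo 1, intMo 2, pMo 0, pMo 1 and pMo 2 (adjusted p up to 0.0778).

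Among 14 tested genes of T, B and NK cells, 1 rose and 2 fell (2 and 2 with a replicate block). They were Klrb1c, an NK cell receptor (log2 2.07 ± 0.44, edgeR adjusted p = 0.028), Cd8a and Il7r, the receptor for interleukin 7 (log2 -1.67 ± 0.37, edgeR adjusted p = 0.0345). Cd3e, Cd3g, Pax5, Ncr1, Eomes and Gzma were too low to be tested, and Cd3d had 0.911, 1.53 and 1.62 CPM in intMo and 1.07, 0.945 and 0.437 CPM in pMo. Ighm, an antibody heavy chain, had 75.8, 96.1 and 98.2 CPM in intMo and 146, 165 and 154 CPM in pMo (log2 0.78 ± 0.20, edgeR adjusted p = 0.0626), and was called higher with a replicate block (adjusted p = 0.0242). Summed levels of the list ran from 163 to 186 CPM in intMo and from 191 to 210.4 in pMo. Ighm made up the larger part of each pMo sum, so the sums do not stand for the other members. The median log2 change of the list was -0.32, with a positive fold change in 6 genes and a negative one in 8. Stromal genes, which would mark feeder cells, had 0 of 20 called by edgeR and by DESeq2, with 2 at an unadjusted p under 0.05. Their sums were 988.7, 341.4 and 411.4 CPM in intMo and 668, 454 and 380.4 in pMo, which overlap, and library 0 was the highest of each subset. Cxcl12, the most abundant of them, had 138, 70.2 and 73 CPM in intMo and 86, 87.6 and 63.6 CPM in pMo (log2 -0.25 ± 0.28, edgeR adjusted p = 0.739), a direction that turned with libraries 1 and 2 alone (log2 0.08) and without intMo 0 (0.14). Of 18 genes of neutrophils and their progenitors, 0 were called by edgeR and 2 were lower by DESeq2, with 3 at an unadjusted p under 0.05. The median was -0.57, with a negative fold change in 16 and a positive one in 2. With libraries 1 and 2 alone, 11 of them were called lower and 0 higher. Between same-numbered libraries the median log2 difference was 0.30, -0.63 and -0.62. Their sums were 787.8, 5109 and 4836 CPM in intMo and 1097, 3419 and 3441 in pMo, so libraries 0 were the lowest. S100a9, the most abundant of these, had 105, 1410 and 1245 CPM in intMo and 128, 756 and 798 CPM in pMo (log2 -0.71 ± 1.03, edgeR adjusted p = 0.8), and over the alternatives its log2 change ran from -1.24 to -0.24. Of 22 listed genes of erythroid cells, platelets, mast cells, basophils and eosinophils, 8 were tested. Of these, 0 were called by edgeR, 1 was lower by DESeq2 and 2 had an unadjusted p under 0.05. The median was -1.30, with a negative fold change in 6 and a positive one in 2. The sums were 64.9, 27.9 and 23.5 CPM in intMo and 21.5, 10.9 and 8.39 in pMo, so every pMo library lay below every intMo library. Pf4 of platelets, which made up most of each intMo sum, had 57.7, 18.9 and 16 CPM in intMo and 14.5, 3.71 and 2.32 CPM in pMo (log2 -2.17 ± 0.82, edgeR adjusted p = 0.19). The part of all these cell types in the results above was not tested. The calls of Klrb1c and Il7r were each lost on leaving out at least 1 library among cMo 1, cMo 2, intMo 0, intMo 1, intMo 2, pMo 0, pMo 1 and pMo 2 (adjusted p up to 0.147). Il7r also lost its call in a fit of the 6 intMo and pMo libraries alone (0.0538).

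Most genes of tissue macrophages lay lower in pMo, but none passed the test. Of 19 tested, 0 were called by edgeR, and 1 was higher and 7 were lower by DESeq2. An unadjusted p under 0.05 was given for 11 of them, beside 18.6% of all genes tested. The subsets did not overlap in 13 of them, beside 27.7% of all genes tested. The median was -0.89, with a negative fold change in 15 and a positive one in 4. Their sums were 10740, 6064 and 5815 CPM in intMo and 4228, 3311 and 3325 in pMo, so every intMo library lay above every pMo library. C1qa, a chain of complement C1q, had 892, 387 and 376 CPM in intMo and 212, 88.8 and 90.04 CPM in pMo (log2 -2.08 ± 0.54, edgeR adjusted p = 0.0664). C1qb, another chain, had 2135, 1193 and 1067 CPM in intMo and 598, 377 and 352 CPM in pMo (log2 -1.73 ± 0.50, edgeR adjusted p = 0.0937). Mertk, a kinase with which phagocytes take up dying cells, had 397, 200.2 and 229.5 CPM in intMo and 108, 99 and 98.7 CPM in pMo (log2 -1.43 ± 0.43, edgeR adjusted p = 0.105). Mrc1, the mannose receptor, had 463, 218 and 226 CPM in intMo and 78.4, 32.4 and 36.9 CPM in pMo (log2 -2.62 ± 0.68, edgeR adjusted p = 0.0655). Apoe, a lipid carrier, had 2531, 1169 and 1143 CPM in intMo and 1227, 1028 and 1090 CPM in pMo (log2 -0.53 ± 0.47, edgeR adjusted p = 0.636). In the genes of complement C1q and in Mrc1, library 0 was the highest of each subset. With libraries 1 and 2 alone, 12 of the list were called lower and 2 higher.

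Other genes known from macrophages and phagocytes were called. Slc40a1, the iron exporter ferroportin and the 1 called gene of 19 on iron and haem (median -0.16), fell from 1042, 557 and 519 CPM in intMo to 201, 111 and 115 CPM in pMo (log2 -2.31 ± 0.41, edgeR adjusted p = 0.0145). Fcgr3, a low-affinity receptor for antibodies, fell from 516, 503 and 434 CPM in intMo to 154, 213 and 197 CPM in pMo (log2 -1.37 ± 0.22, edgeR adjusted p = 0.00901). Cd300lb, an activating receptor, rose by log2 0.80 ± 0.14 (edgeR adjusted p = 0.0129). With Treml4 these were the genes called among 28 of the Fc, TREM and Cd300 receptors (median 0.18), of which a replicate block called 2 higher and 2 lower. Among 28 genes of scavenging, complement and uptake of dying cells, 1 rose and 1 fell (median -0.47), with a negative fold change in 20 and a positive one in 8. DESeq2 called 2 higher and 7 lower, and the fit of libraries 1 and 2 alone called 3 higher and 10 lower. Cfp, the complement factor properdin, fell from 761, 549.5 and 534 CPM in intMo to 257, 247 and 233 CPM in pMo (log2 -1.32 ± 0.19, edgeR adjusted p = 0.00566). Cd36, a scavenger receptor for lipids, rose from 7.56, 10.1 and 6.66 CPM in intMo to 54.4, 56 and 59.6 CPM in pMo (log2 2.81 ± 0.67, edgeR adjusted p = 0.0487). The calls of Slc40a1, Cd300lb and Cd36 were each lost on leaving out at least 1 library among cMo 1, cMo 2, intMo 0, intMo 1, intMo 2, pMo 0, pMo 1 and pMo 2 (adjusted p up to 0.171). Cd36 also lost its call with upper quartile scaling (0.0535), without a filter on low counts (0.12), with a filter at 1 CPM in 3 libraries (0.052) and with a replicate block (0.0648).

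Of 16 MHC class II and loading genes 0 were called by edgeR and 2 were higher by DESeq2, with 5 at an unadjusted p under 0.05 and a median of -0.63. Their sums were 19200, 8197 and 7495 CPM in intMo and 12310, 4913 and 4922 in pMo. Within each library number the sum was lower in pMo, while library 0 of pMo lay above libraries 1 and 2 of intMo. H2-Ab1, a class II beta chain, had 2654, 806 and 790 CPM in intMo and 1622, 289.8 and 294 CPM in pMo (log2 -0.95 ± 0.91, edgeR adjusted p = 0.672), and over the alternatives its log2 change ran from -2.27 to -0.12. Cd74, the invariant chain, was measured at 7414, 2445 and 2478 CPM in intMo and 4374, 1298 and 1264 CPM in pMo (log2 -0.83 ± 0.77, edgeR adjusted p = 0.659), with a range of -1.67 to -0.09. H2-Eb2, a less studied beta chain, lay on the other side, at 12.8, 6.11 and 4.47 CPM in intMo and 62.8, 20.1 and 20.2 CPM in pMo (log2 2.15 ± 0.61, edgeR adjusted p = 0.0856), and was called with a replicate block (adjusted p = 0.0367). With libraries 1 and 2 alone, 9 of the list were called lower and 2 higher. MHC class I and peptide loading genes had 0 of 20 called by both tools, with 2 at an unadjusted p under 0.05 and a median of -0.02. B2m, the light chain of class I, had 1714, 2333 and 1995 CPM in intMo and 1912, 2768 and 2664 CPM in pMo (log2 0.28 ± 0.22, edgeR adjusted p = 0.589). Interferon-stimulated genes had 0 of 31 called by both tools and 0 at an unadjusted p under 0.05 (median -0.08). Their sums were 2468, 5818 and 5484 CPM in intMo and 2006, 5272 and 5343 in pMo, lowest in the libraries numbered 0.

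Genes of DNA replication and division had negative median differences between pMo and intMo, larger in libraries 1 and 2 than in library 0. Of 31 genes of DNA replication and S phase, 2 fell, 29 were not called and all 31 had a negative fold change (median -1.17). Pola1, the catalytic chain of DNA polymerase alpha, was at 22.4, 50.9 and 47.6 CPM in intMo and 12.8, 13.7 and 13.3 CPM in pMo (log2 -1.60 ± 0.27, edgeR adjusted p = 0.0104). Cdc6, which loads the replication helicase, was at 5.52, 13.5 and 12.7 CPM in intMo and 2.38, 3.01 and 4.59 CPM in pMo (log2 -1.67 ± 0.39, edgeR adjusted p = 0.0444). Mcm2, a chain of that helicase, had 24.6, 58 and 60.1 CPM in intMo and 26.3, 23.2 and 22.1 CPM in pMo and was not called (log2 -0.996 ± 0.37, edgeR adjusted p = 0.184). The sums of the list were 653.5, 1678 and 1572 CPM in intMo and 649.3, 696.7 and 679.5 in pMo. Between same-numbered libraries the median log2 difference was -0.01, -1.50 and -1.31. DESeq2 called 15 of the 31 lower, a replicate block 1, and the fit of libraries 1 and 2 alone called 30. The calls of Pola1 and Cdc6 were each lost on leaving out at least 1 library among cMo 1, cMo 2, intMo 1, intMo 2, pMo 0, pMo 1 and pMo 2 (adjusted p up to 0.182). Cdc6 also lost its call in a fit of the 6 intMo and pMo libraries alone (0.0585) and with a replicate block (0.0808).

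Of 27 genes of mitosis and G2, 0 were called by both tools and 8 had an unadjusted p under 0.05, with a negative fold change in all 27 (median -1.19). Their sums were 590, 3125 and 2908 CPM in intMo and 525.2, 1169 and 1267 in pMo, and the median differences between same-numbered libraries were -0.17, -1.40 and -1.17. Mki67, a protein of dividing nuclei, had 93.1, 492 and 555 CPM in intMo and 81.4, 153 and 202 CPM in pMo (log2 -1.39 ± 0.58, edgeR adjusted p = 0.238). Top2a, the topoisomerase of dividing cells, had 63.5, 462 and 385 CPM in intMo and 59, 152 and 166 CPM in pMo (log2 -1.27 ± 0.62, edgeR adjusted p = 0.32). Cdk1, the kinase that starts mitosis, stood at 12.1, 59.8 and 49.7 CPM in intMo and 8.38, 27.5 and 25.8 CPM in pMo (log2 -0.98 ± 0.57, edgeR adjusted p = 0.418). The subsets overlapped in these genes with intMo library 0 below pMo libraries 1 and 2. The fit of libraries 1 and 2 alone called all 27 lower. Among 28 inhibitors of cyclin-dependent kinases and targets of p53, 1 rose and none fell (median 0.11), and 3 rose with a replicate block. It was Gadd45b, a stress sensor induced by NF-kB, at 50.9, 30.4 and 31.6 CPM in intMo and 116, 88.3 and 89.8 CPM in pMo (log2 1.38 ± 0.22, edgeR adjusted p = 0.00852).

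**Figure D3:**
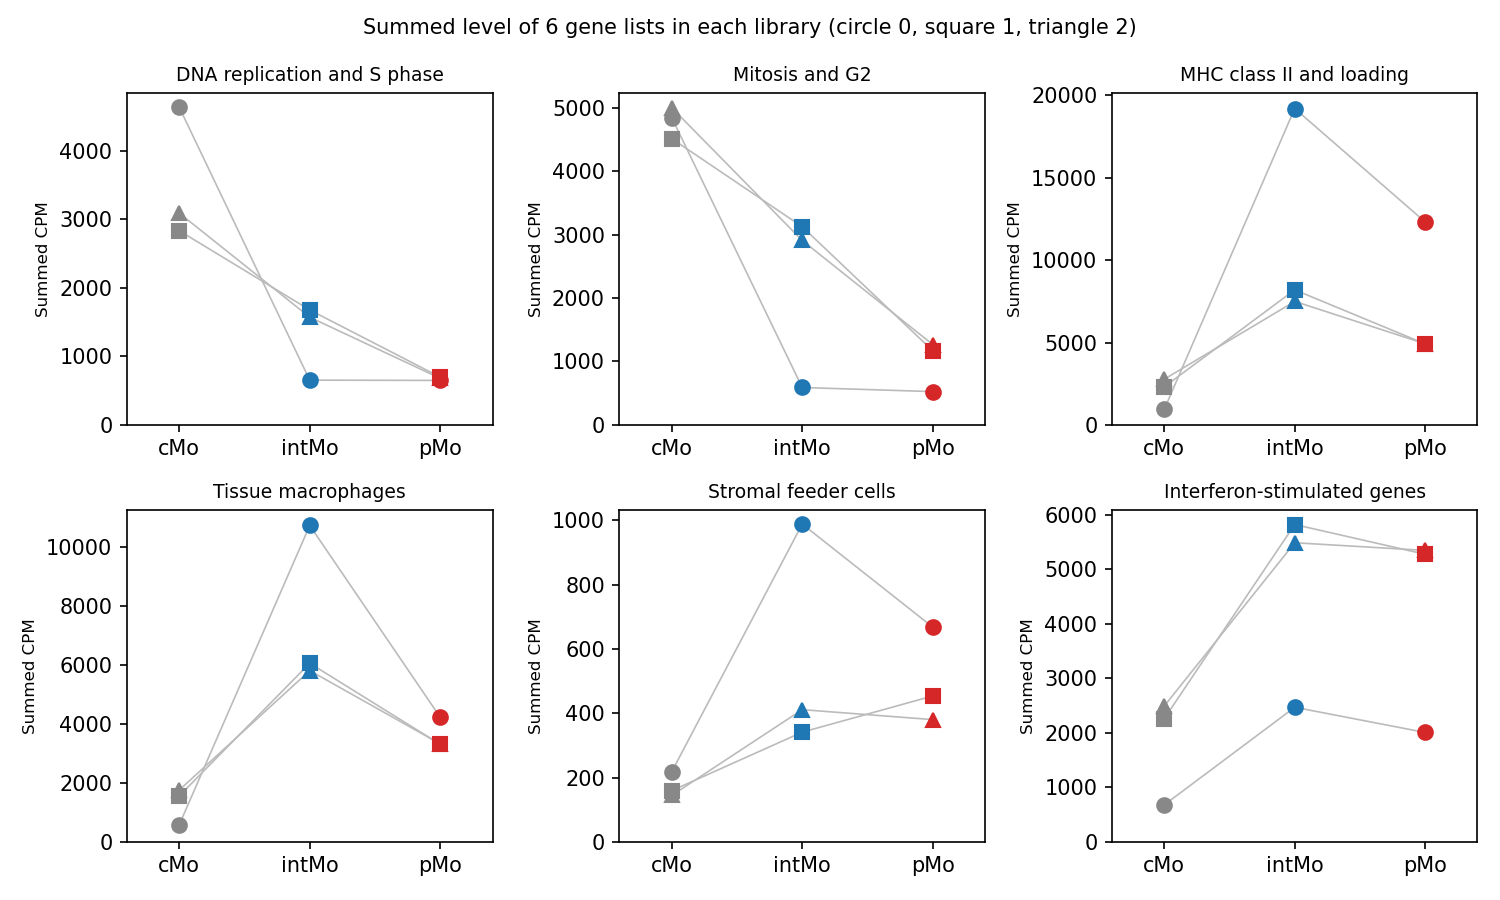
Summed level (CPM) of 6 gene lists in each library, with grey lines joining libraries of the same number across cMo (grey), intMo (blue) and pMo (red). In the lists of S phase and mitosis libraries 1 and 2 lie lower in pMo than in intMo while libraries 0 differ by less (649.3 against 653.5 CPM and 525.2 against 590 CPM), and in the macrophage list every pMo library lies below every intMo library.

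In glycolysis, 3 of 26 genes rose and none fell (median 0.12). Apart from Eno3 they were Pfkfb3, which makes an activator of glycolysis, and Slc16a3, a lactate exporter. Pfkfb3 was at 85.6, 58.1 and 62.7 CPM in intMo and 166, 172 and 172 CPM in pMo (log2 1.30 ± 0.21, edgeR adjusted p = 0.00994). Slc16a3 had 81.3, 88.2 and 114 CPM in intMo and 195, 224 and 218 CPM in pMo (log2 1.17 ± 0.19, edgeR adjusted p = 0.00994). Eno1, the enolase of most tissues, had 1072, 1202 and 1167 CPM in intMo and 1016, 1169 and 1101 CPM in pMo and was not called (log2 -0.07 ± 0.15, edgeR adjusted p = 0.88). The subsets overlapped in Eno1 and, as in every called gene, did not overlap in Eno3. Oxidative phosphorylation had 0 of 32 genes called by both tools, with 2 at an unadjusted p under 0.05 (median -0.13), and Atp5a1, a chain of ATP synthase, had 679, 837 and 769 CPM in intMo and 672, 686 and 746 CPM in pMo (log2 -0.12 ± 0.14, edgeR adjusted p = 0.737). None of 13 mitochondrial DNA genes was called by either tool, and 0 had an unadjusted p under 0.05 (median -0.06). Of these, mt-Co1, a chain of cytochrome oxidase, had 9019, 9065 and 7983 CPM in intMo and 7162, 8744 and 8490 CPM in pMo (log2 -0.10 ± 0.16, edgeR adjusted p = 0.825), and its direction turned with libraries 1 and 2 alone (log2 0.02). The calls of Pfkfb3 and Slc16a3 were each lost on leaving out at least 1 library among intMo 2 and pMo 1 (adjusted p up to 0.0518).

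Lipid genes were called higher in 2 of 32 cases on the list of LXR, sterol and fatty acid genes, with none lower (median 0.36). Lpl, the lipase that frees fatty acids from lipoproteins, was at 49.3, 78.7 and 78.5 CPM in intMo and 243, 487 and 535 CPM in pMo (log2 2.61 ± 0.42, edgeR adjusted p = 0.0102). Fabp4, a fatty acid carrier, was at 1.98, 1.78 and 1.36 CPM in intMo and 5.88, 6.16 and 5.25 CPM in pMo (log2 1.76 ± 0.33, edgeR adjusted p = 0.0173). Apoc2, the cofactor of that lipase, was not in the list and rose from 36.2, 44.5 and 44.8 CPM in intMo to 179, 219.7 and 203 CPM in pMo (log2 2.26 ± 0.20, edgeR adjusted p = 0.000868). Smpdl3b, a membrane-bound phosphodiesterase related to acid sphingomyelinase, rose from 19.4, 19.1 and 17 CPM in intMo to 187, 141 and 135 CPM in pMo (log2 3.06 ± 0.30, edgeR adjusted p = 0.000958). Like every called gene, Lpl, Apoc2 and Smpdl3b had no overlap between the subsets. Of the 32 list genes, 10 were called higher with libraries 1 and 2 alone. The call of Fabp4 was lost without intMo 1, intMo 2, pMo 1 or pMo 2 (adjusted p up to 0.0856).

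Lysosome genes were called higher in 2 and lower in 3 of 31 cases (median 0.01). Both proteases among them fell. Ctsl was at 263, 193 and 164 CPM in intMo and 74, 85.1 and 93.4 CPM in pMo (log2 -1.30 ± 0.19, edgeR adjusted p = 0.00676). Ctsc was at 2108, 1848 and 1714 CPM in intMo and 744, 1026 and 1071 CPM in pMo (log2 -0.997 ± 0.20, edgeR adjusted p = 0.0204). Glb1, a galactosidase, fell (log2 -0.53 ± 0.11, edgeR adjusted p = 0.0286). Tfeb, the transcription factor of lysosome genes, rose by log2 0.56 ± 0.13 (edgeR adjusted p = 0.0384). The calls of Ctsc, Glb1 and Tfeb were each lost on leaving out at least 1 library among cMo 1, intMo 0, intMo 1, intMo 2, pMo 0, pMo 1 and pMo 2 (adjusted p up to 0.137). Glb1 also lost its call without a filter on low counts (0.0509). Tfeb also lost its call without a filter on low counts (0.0576), with upper quartile scaling (0.0598) and with a replicate block (0.0521).

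Of 22 Notch pathway genes 1 rose and 1 fell (median 0.20), and 2 fell with a replicate block. Notch1, a receptor that the Delta-like 1 of the feeder line can bind, fell from 92.8, 52.4 and 88 CPM in intMo to 35.7, 30.3 and 27.5 CPM in pMo (log2 -1.32 ± 0.29, edgeR adjusted p = 0.0331). Lfng, an enzyme that adds sugars to Notch receptors and tunes their response to ligands, rose from 117, 77 and 92 CPM in intMo to 192, 167 and 153 CPM in pMo (log2 0.84 ± 0.18, edgeR adjusted p = 0.0276). Hes5, Hey1, Hey2 and Heyl were too low to be tested. On the list of tetraspanins and surface enzymes 4 of 32 rose and 2 fell (median -0.17), and 4 fell with a replicate block. With Ace and Cd9, those that rose were Cd82, a tetraspanin, at 105, 93 and 106 CPM in intMo and 200.1, 187 and 206 CPM in pMo (log2 0.96 ± 0.13, edgeR adjusted p = 0.00464), and Plaur, the receptor for urokinase (log2 0.54 ± 0.12, edgeR adjusted p = 0.0385). Adam19, a membrane protease, fell from 26.4, 11.4 and 20.2 CPM in intMo to 5.13, 4.52 and 3.45 CPM in pMo (log2 -2.14 ± 0.47, edgeR adjusted p = 0.0332), and Enpp4, a nucleotide-cleaving enzyme, fell as well (log2 -1.25 ± 0.22, edgeR adjusted p = 0.013). The calls of Notch1, Lfng, Plaur, Adam19 and Enpp4 were each lost on leaving out at least 1 library among cMo 1, cMo 2, intMo 0, intMo 1, intMo 2, pMo 0, pMo 1 and pMo 2 (adjusted p up to 0.167). Plaur also lost its call with upper quartile scaling (0.0518) and without a filter on low counts (0.0598).

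**Figure D4:**
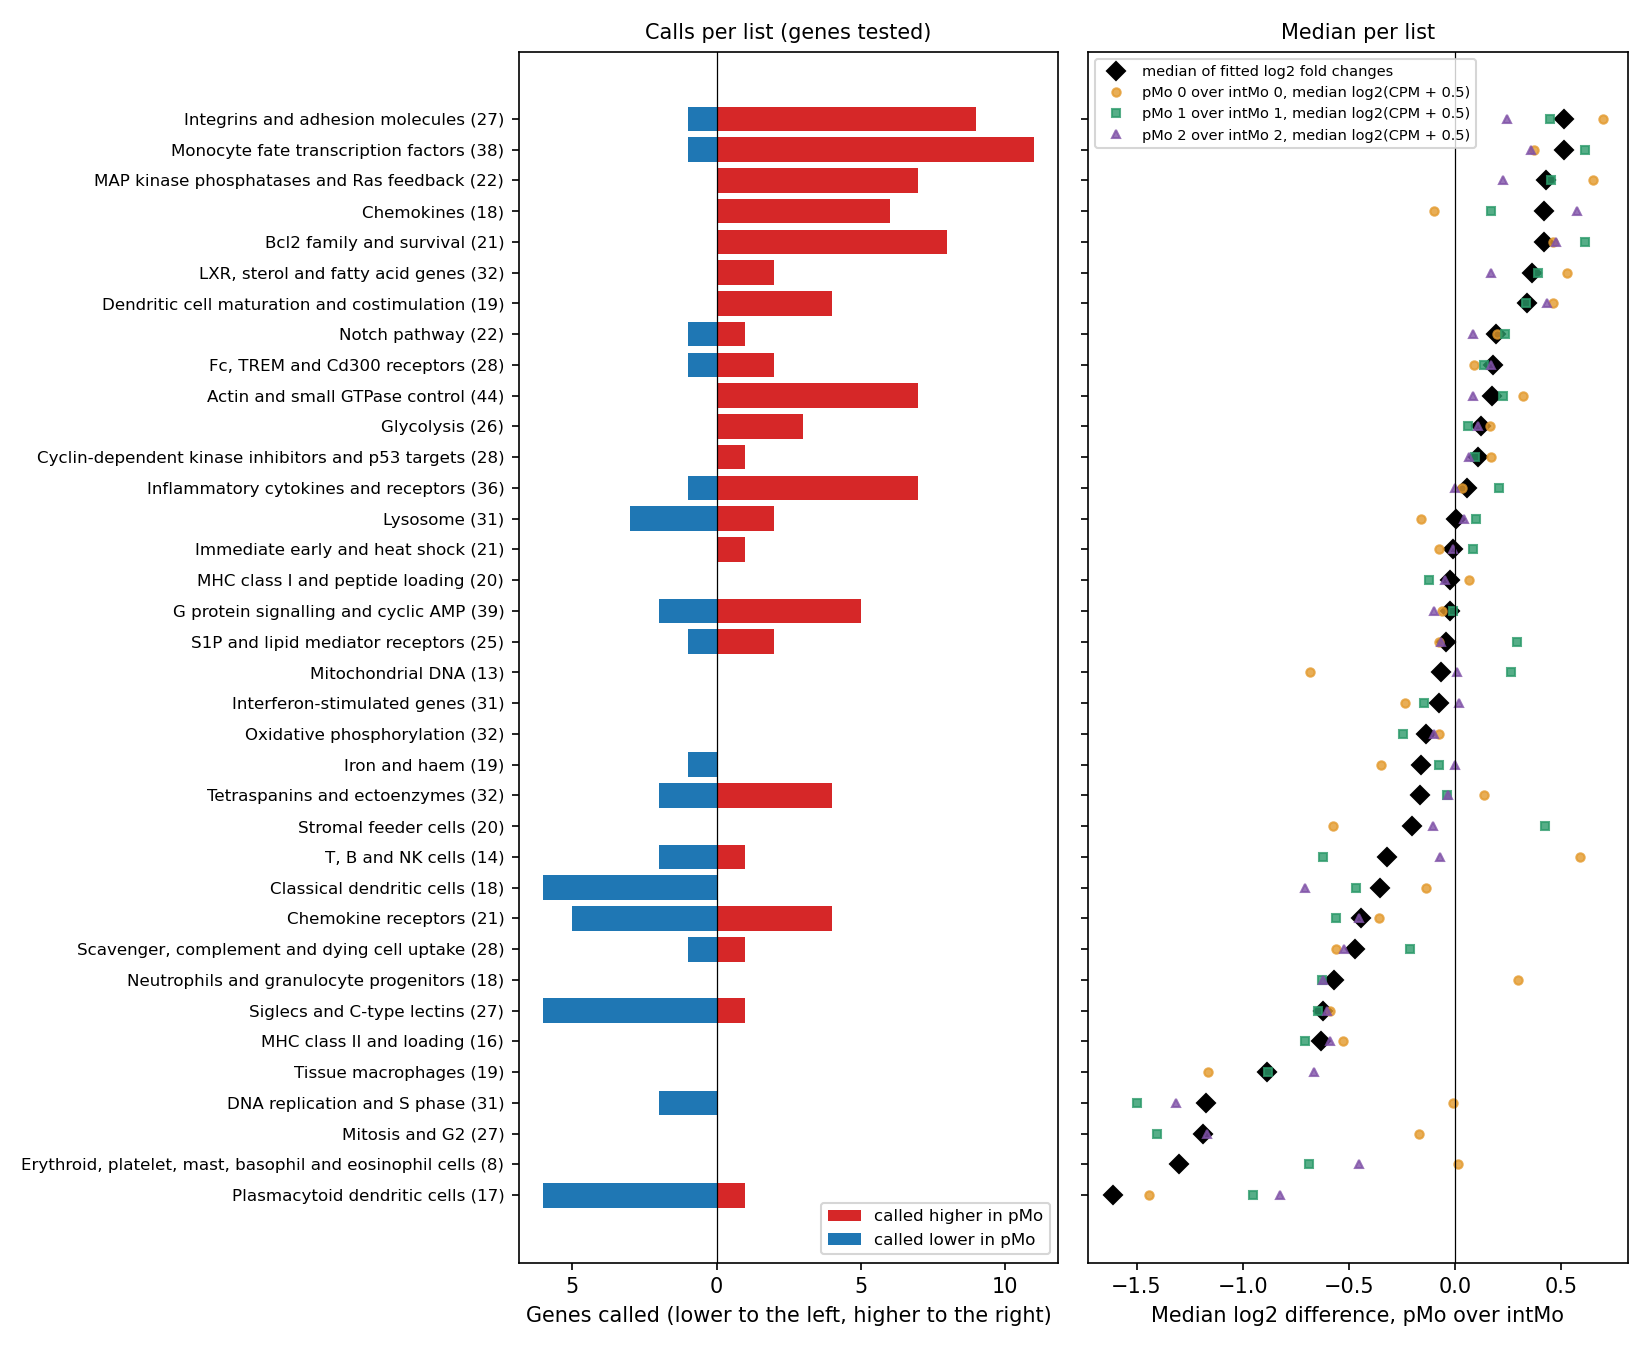
Left, genes called higher (red, to the right) and lower (blue, to the left) in pMo for each of the 36 gene lists, with the number of genes tested in brackets. Right, the median log2 change of each list (black) and the medians between same-numbered libraries. Adhesion and transcription factor lists lie at the top. S phase, mitosis, erythroid and platelet, and plasmacytoid dendritic cell lists lie near the bottom, where the medians of library pair 0 for the division lists lie near 0.

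Among the 12 largest falls of genes with at least 20 CPM on average were several immune receptors and enzymes. Bank1, a B cell adapter, was at 132, 127 and 110.1 CPM in intMo and 31.6, 33.4 and 35.3 CPM in pMo (log2 -1.88 ± 0.18, edgeR adjusted p = 0.000958). Nxpe5, a gene of little known function, was at 354, 181 and 190.2 CPM in intMo and 69.3, 47.2 and 44.4 CPM in pMo (log2 -2.17 ± 0.29, edgeR adjusted p = 0.00428). Apol7c, of the apolipoprotein L family, was measured at 168, 97.6 and 82 CPM in intMo and 33.5, 19.6 and 18.2 CPM in pMo (log2 -2.29 ± 0.33, edgeR adjusted p = 0.00611). In these 3 genes the pMo libraries lay between intMo and cMo, in which Apol7c had 0, 0.0352 and 0.036 CPM in cMo. Dmpk, a protein kinase known from muscle, was at 61.8, 54.3 and 67.6 CPM in intMo and 9.16, 6.51 and 6.25 CPM in pMo (log2 -3.07 ± 0.54, edgeR adjusted p = 0.0137). Tlr12, a sensor of parasite profilin, was at 95.6, 32 and 40.5 CPM in intMo and 16.1, 7.42 and 5.73 CPM in pMo (log2 -2.52 ± 0.49, edgeR adjusted p = 0.0204). Gbp2b, an interferon-induced GTPase, stood at 33.2, 39.7 and 32.8 CPM in intMo and 8.18, 5.64 and 5.86 CPM in pMo (log2 -2.42 ± 0.48, edgeR adjusted p = 0.0217). Fcrls, an Fc receptor-like molecule of microglia, Tspan15, a tetraspanin, and Abcc3, a transporter of conjugates, fell as well (log2 -2.42 ± 0.53, edgeR adjusted p = 0.0334, log2 -1.95 ± 0.44, edgeR adjusted p = 0.0386 and log2 -1.87 ± 0.41, edgeR adjusted p = 0.0332). Without intMo 0 the log2 changes of Tlr12 and Abcc3 were -1.90 and -1.27. The calls of Dmpk, Tlr12, Gbp2b, Fcrls, Tspan15 and Abcc3 were each lost on leaving out at least 1 library among cMo 1, cMo 2, intMo 0, intMo 1, intMo 2, pMo 0, pMo 1 and pMo 2 (adjusted p up to 0.175). Fcrls also lost its call without a filter on low counts (0.0814) and with a replicate block (0.0728). Abcc3 also lost its call without a filter on low counts (0.0531) and in a fit of the 6 intMo and pMo libraries alone (0.0643).

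On the other side, Ly6i, a member of the Ly6 family, was at 1.77, 9.21 and 8.09 CPM in intMo and 55.6, 106 and 103 CPM in pMo (log2 3.78 ± 0.59, edgeR adjusted p = 0.00871). Ear2, a ribonuclease of eosinophils and patrolling monocytes, had 28.8, 72.3 and 56.2 CPM in intMo and 239, 465 and 425 CPM in pMo (log2 2.84 ± 0.37, edgeR adjusted p = 0.0038). Both have close paralogs, so their levels are uncertain, and in both library 0 was the lowest of each subset.

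Some genes were nearly absent from 1 subset. Cyp2ab1, a cytochrome P450, was at 0, 0.212 and 0.166 CPM in intMo and 14.3, 11.1 and 9.92 CPM in pMo (log2 6.40 ± 0.78, edgeR adjusted p = 0.00277). Dnah12, a dynein heavy chain of cilia, was measured at 0, 0.297 and 0.0663 CPM in intMo and 7.68, 8.47 and 10.4 CPM in pMo (log2 6.10 ± 0.68, edgeR adjusted p = 0.00186). With S1pr5, and with Siglech, Ly6d and Atp1b1 in the other direction, these were the 6 called protein-coding genes with under 1 CPM in every library of 1 subset and the highest mean in the other. Scnn1g, a sodium channel subunit, had 0 estimated counts over the intMo libraries and 78 over the pMo libraries, at least 24.8-fold higher with a floor of 3 counts over the subset (edgeR adjusted p = 0.016). Adrb1, the beta-1 adrenergic receptor, had 3 and 311, a ratio of 99.0 with an exact 95% counting interval of 33.6 to 482.7 (edgeR adjusted p = 0.0152). Drd4, a dopamine receptor, had 67 over the intMo libraries and 0 over the pMo libraries, at least 23.4-fold lower in pMo (edgeR adjusted p = 0.0174). Vegfc, a growth factor of lymph vessels, was at 1.39, 1.15 and 0.829 CPM in intMo and 40.3, 9.45 and 7.65 CPM in pMo (log2 4.10 ± 0.66, edgeR adjusted p = 0.00994), with pMo library 0 far above the others and a log2 change of 2.94 without it. Edn1, the vessel-constricting peptide endothelin 1, rose from a low level, at 0.107, 0.552 and 0.298 CPM in intMo and 2.59, 2.31 and 3.8 CPM in pMo (log2 3.14 ± 0.59, edgeR adjusted p = 0.0179). Without intMo 1 the log2 changes of Dnah12 and Edn1 were 7.63 and 3.73, and with libraries 1 and 2 alone that of Cyp2ab1 was 5.78. The calls of Scnn1g, Adrb1, Drd4, Vegfc and Edn1 were each lost on leaving out at least 1 library among intMo 1, intMo 2, pMo 0, pMo 1 and pMo 2 (adjusted p up to 0.086). Scnn1g also lost its call with a replicate block (0.0534).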

How the data were processed

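Polyadenylated RNA of 9 libraries of in vitro mouse monocytes was sequenced, and the 3 pMo and 3 intMo libraries were compared. Per the labels' protocols, RNAzol was used for extraction and a stranded NEBNext Ultra II mRNA kit for the libraries. The table that the authors deposited holds estimated counts per gene, made with kallisto 0.46.1 and mm10 per the submitters' processing notes. The sources used here do not name the annotation, the step to genes or the strand setting, so overlapping and antisense genes are uncertain. From 25.6% to 27.5% of values per library were not whole, and all were rounded. Symbols and positions came from GENCODE M21 (46005 of 46517 IDs matched). Intervals and floors cover counting error only, since PCR copies could not be told from separate molecules.

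Genes were filtered with filterByExpr by subset and scaled by TMM, and all 9 libraries were fitted by subset in edgeR 4.0.16 (robust quasi-likelihood, R 4.3.3). Benjamini-Hochberg adjustment ran over the 14059 genes tested, and a gene was called at an adjusted p under 0.05. CPM are per TMM-scaled library, and principal components were taken from log2 CPM (prior count 2). The steps were run on simulated counts with known changes. No library number stood apart in them, so that run does not cover the split of library 0 seen here. Same-numbered libraries deviated together from their subset means (correlations of 0.588, 0.300 and 0.274 for numbers 0, 1 and 2). Libraries 1 and 2 did so across numbers as well, at 0.403 for intMo 1 with pMo 2 and 0.279 for intMo 2 with pMo 1. The correlations thus set library 0 apart but cannot tell how libraries 1 and 2 pair. The library numbers were used as a replicate block, although the labels do not say what a number shares. A fit with that replicate block was an alternative, among 17. The others were RLE and upper quartile scaling, no filter, a filter at 1 CPM in 3 libraries, the 6 libraries alone, DESeq2 1.42.0, libraries 1 and 2 alone, and each library left out.

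The 36 gene lists, the genes that open the report and the tests were chosen with earlier results of these data known, so the lists are described by counts and medians without a test. Named genes were the opening 5, the 12 highest and 12 lowest called genes with at least 20 CPM on average, up to 3 called members of each biology list (or its most abundant member), the member of each remaining list with the highest level, and 6 genes under 1 CPM in 1 subset. The other genes named, 93 candidates in all, were chosen after their values were seen. A few genes within the rule or the lists are not reported here.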

Additional observations from a re-analysis of the deposited data

How the results depend on the processing

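Of 153 called genes among those named, 68 kept their call in all 17 alternatives, 11 lost it with a replicate block and 0 with libraries 1 and 2 alone. Many were picked by the size of their change or after their values were seen, so these counts do not stand for all 701 calls. The number of genes called higher in pMo was 463, and it was 507 with a replicate block, 767 with DESeq2 and 1053 with libraries 1 and 2 alone. Genes called lower numbered 238, then 329, 645 and 1371 under the same settings. Leaving out 1 library gave 170 to 650 genes called higher and 51 to 457 called lower. Of the 701 calls, these fits shared from 221, without pMo 1, and 255, without pMo 2, up to 700, without cMo 0. DESeq2 shared all 701 calls, the replicate block 625 and libraries 1 and 2 alone 691. Upper quartile scaling called 392 higher and 276 lower and shared 630. The direction of 4 genes without a call turned with libraries 1 and 2 alone, Cxcl12 (log2 0.080), mt-Co1 (0.015), S1pr1 (0.24) and S1pr2 (0.11). Over the fits that left out 1 library, the log2 change ran from -0.42 to 0.14 for Cxcl12, from -0.51 to 0.13 for S1pr1 and from -0.20 to 0.097 for S1pr2. The cause was not tested. A fit that leaves out a library has fewer samples, and with 3 libraries per subset the precision is limited by their number.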
